A study of Homo sapiens with 12 samples.

Results

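The expression of 42 genes of glycolysis and of the response to low oxygen was examined in HEK293T cells, an established line of human embryonic kidney cells, after siRNA knockdown of CARM1 or of a subunit of the NuRD complex. The genes were listed by name and matched to the Ensembl identifiers of the count files by gene symbol. All 42 had an identifier, and 41 passed the filter on low expression (protein-coding, with a mean above 0.5 FPKM in at least 1 group) among 12853 genes tested. FPKM is the number of fragments on exons per kilobase of exon, scaled to the total of fragments on genes. In the levels and sums below, but not in the filter, that total was also multiplied by the TMM scaling factor of the library (0.978 to 1.01). CA9 did not pass the filter.

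The study asked how CARM1, an arginine methyltransferase, and NuRD, a chromatin remodeling and histone deacetylase complex, act together in gene transcription. The 6 groups, each of 2 libraries, came from unedited cells that received a control siRNA (siCTL) or an siRNA against CARM1 (siCARM1), the chromatin remodeling ATPase CHD4 (siCHD4), the histone deacetylase HDAC2 (siHDAC2), the GATA zinc-finger subunit GATAD2A (siGATAD2A) or the histone demethylase KDM1A (siKDM1A). All cells were grown in the same medium under what the labels call normal conditions, and no label names an exposure to low oxygen. The study's methods give 1 siRNA sequence for each target but CARM1, which has a pair, and the labels do not say which of that pair was used. No source says whether the libraries of a group came from separate transfections, so the p-values below measure the spread between libraries, which may be technical.

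Cells sense oxygen through the hypoxia-inducible factors. HIF1A and EPAS1 (HIF-2alpha) are alpha subunits that are made continuously and destroyed while oxygen is present: the prolyl hydroxylases EGLN1 and EGLN3 mark them and VHL, part of a ubiquitin ligase, binds the mark. In low oxygen the alpha subunits persist, pair with ARNT and switch on genes for glucose transport, glycolysis, blood vessel growth and mitochondrial turnover. This control acts on the protein, whereas the libraries measure RNA. Glycolysis turns glucose into pyruvate in a chain of enzymes, most of which exist as several isozymes encoded by separate genes.

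The targeted genes were checked first. In its own knockdown, the log2 fold change of the targeted RNA was -2.38 for CARM1, -2.35 for HDAC2, -1.75 for GATAD2A, -2.59 for KDM1A and -0.55 for CHD4. The decrease of CHD4 was thus the smallest, from 2.99 and 3 FPKM in siCTL to 2.01 and 2.09 in siCHD4. Fragments assigned to genes ran from 19308315 to 28648657 per library. Of 5 features of the HEK293 line, VIM (47.2 to 139 FPKM), NEFL (31.4 to 49.2) and LHX1 (2.63 to 4.14) were expressed in each library, while NEFM and PAX2 stayed at or below 0.336 FPKM. Of 3 blood cell markers the highest, CD3E, stayed at or below 0.168 FPKM, and of 3 liver markers APOA1 at or below 0.48. Of 3 fibroblast markers, COL1A1 (8.37 to 13.9 FPKM) was expressed and the other two stayed at or below 0.12. Of 5 markers of MCF7, a breast cancer line, KRT19 (32.8 to 45.4 FPKM) and GATA3 (3.12 to 5.13) were expressed, and the other three stayed at or below 0.46. The part of these markers in the results was not tested. In bulk libraries, less RNA per cell and fewer cells that carry it cannot be told apart.

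The promoter stretches of 4 members are shown, and whether their sequence relates to the changes in RNA was not tested. EPAS1 was called higher in all 5 knockdowns, ALDOC was called lower in all 5, and ANKRD37 had the largest rise. LDHA, a textbook HIF target, held the most matches to the HIF core ACGTG among the members' promoters, with each strand counted. BHLHE40 came next, with 4. The sequences are those of RefSeq on GRCh38.p14, run 5′ to 3′ on the strand of the gene, and end where the start site or an annotated transcript begins. They lie at chr2:46297157-46297406 (plus strand), chr17:28576949-28577145 (minus strand), chr4:185396591-185396810 (plus strand) and chr11:18394313-18394562 (plus strand). Capitals mark ACGTG and GCGTG, the core letters of the element that HIF dimers bind, on either strand.
EPAS1: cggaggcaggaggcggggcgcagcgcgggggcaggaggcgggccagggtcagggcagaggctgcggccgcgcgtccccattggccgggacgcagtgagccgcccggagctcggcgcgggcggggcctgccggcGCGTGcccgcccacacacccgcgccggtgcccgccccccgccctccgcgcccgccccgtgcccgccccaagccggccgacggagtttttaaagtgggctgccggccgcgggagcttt
ALDOC: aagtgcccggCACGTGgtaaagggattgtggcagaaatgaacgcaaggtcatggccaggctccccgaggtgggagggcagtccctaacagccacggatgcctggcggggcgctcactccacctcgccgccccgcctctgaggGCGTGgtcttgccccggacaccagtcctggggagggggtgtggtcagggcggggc
ANKRD37: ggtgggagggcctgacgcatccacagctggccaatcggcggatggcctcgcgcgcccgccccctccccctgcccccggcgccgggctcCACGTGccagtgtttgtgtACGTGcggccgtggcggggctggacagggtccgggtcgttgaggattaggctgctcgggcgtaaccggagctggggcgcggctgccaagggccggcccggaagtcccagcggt
LDHA: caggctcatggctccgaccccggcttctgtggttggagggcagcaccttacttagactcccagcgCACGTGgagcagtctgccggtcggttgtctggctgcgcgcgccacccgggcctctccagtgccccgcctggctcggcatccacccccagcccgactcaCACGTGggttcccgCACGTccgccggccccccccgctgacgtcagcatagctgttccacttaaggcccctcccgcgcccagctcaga
The palindrome CACGTG counts as 2 overlapping matches of ACGTG, 1 on each strand. LDHA held 5 matches of ACGTG within 250 bases before its start, ANKRD37 held 3 and ALDOC held 3, of which the one nearest the start lies outside the stretch shown. EPAS1 held none and had 1 GCGTG. A promoter window was found for 37 of the 42 members, and 16 of these (43.2%) held ACGTG, against 23.2% of the windows of 10414 tested genes. With GCGTG counted too, 23 (62.2%) held a match against 57.7%. A match is a run of letters and not a bound site.

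A gene was called changed where edgeR's quasi-likelihood test gave a Benjamini-Hochberg adjusted p of at most 0.05 over all 12853 genes and the fold change was at least 1.2. Of the 205 changes measured for members (41 genes in 5 knockdowns), 30 were calls lower than siCTL, 35 were calls higher and 140 were neither. Their median size without regard to sign was 0.18 on the log2 scale, against 0.19 over all tested genes, and 9 passed 2-fold. The share of all tested genes past 2-fold was not computed. The counts have to be read against the background of each knockdown. In siCARM1, 3 members were lower (7.32%, against 14.7% of all tested genes) and 7 higher (17.1%, against 14.7%). In siCHD4, 7 were lower (17.1%, against 25.5%) and 10 higher (24.4%, against 23.4%). In siHDAC2, 6 were lower (14.6%, against 9.28%) and 4 higher (9.76%, against 10.4%). In siGATAD2A, 11 were lower (26.8%, against 18.4%) and 6 higher (14.6%, against 15.4%). In siKDM1A, 3 were lower (7.32%, against 11.8%) and 8 higher (19.5%, against 14%). The lower share was thus above that of all genes in siHDAC2 and siGATAD2A and below it in the other 3, a difference that was not tested. All 5 comparisons share the siCTL libraries.

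Across the knockdowns, 27 members (65.9%) were called at least once, against 72.9% of all genes tested. The F test over the 6 groups passed for 38 members (92.7%, background 91.1%). A total of 5 members were higher in at least 4 knockdowns (12.2%, background 5.64%): EPAS1, VEGFA, ERO1A, SLC2A3 and PFKL. The count depended on calls of ERO1A and PFKL close to the minimum fold: with edgeR's filterByExpr on every biotype it was 3 (7.32%, EPAS1, VEGFA and SLC2A3), and it was 4 (9.76%) without siCTL replicate 1, which ended that of PFKL, or without siHDAC2 replicate 1, which ended that of ERO1A. ALDOC alone was lower in at least 4 (2.44%, background 4.48%). Calls in both directions were made for 5 members (12.2%, background 9.45%): HIF1A, ADM, ERO1A, P4HA1 and ENO2. The heat map of fold changes shows that in no role did all tested members pass in the same direction in any knockdown.

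**Figure D1:**
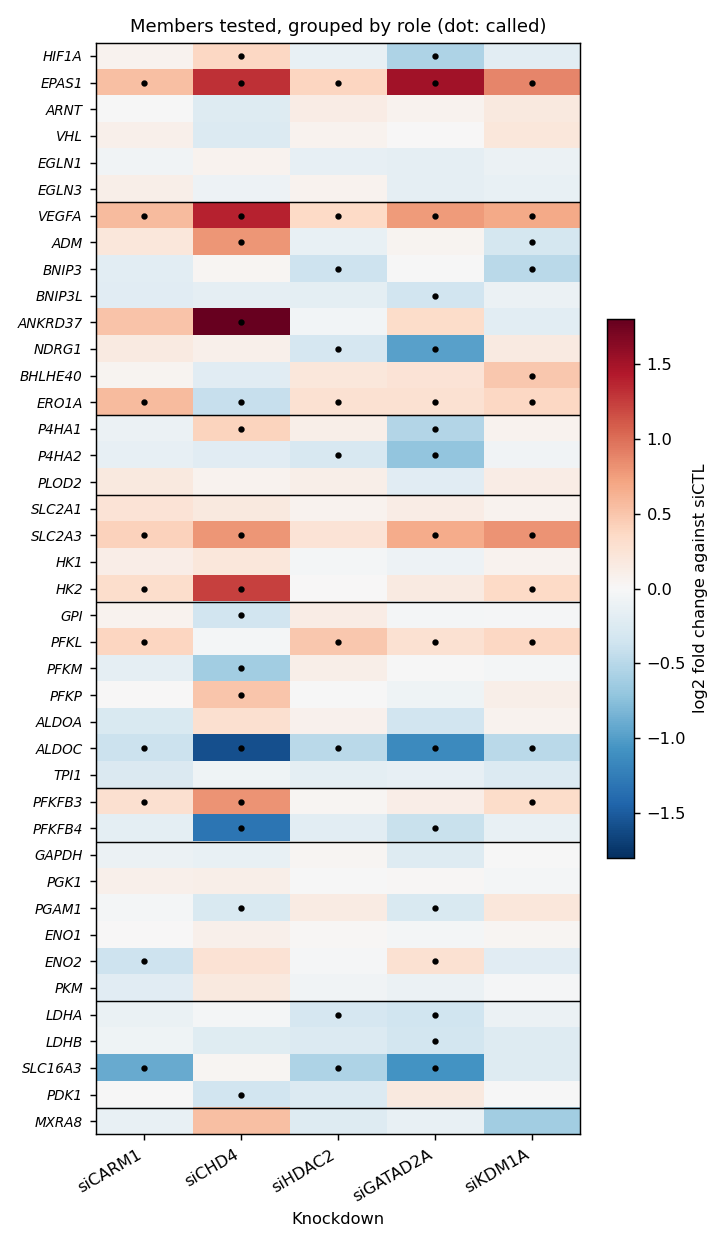
Log2 fold change against siCTL (color, from blue for lower to red for higher) of the 41 members tested (rows, separated by role) in the 5 knockdowns (columns); a dot marks a call. EPAS1 and VEGFA carry a dot on red in all 5 columns and ALDOC a dot on blue in all 5, while rows such as ENO1, PGK1 and SLC2A1 carry none.

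Among the genes that sense oxygen, the alpha subunits were called in opposite directions in siGATAD2A and were both called higher in siCHD4. EPAS1 (ENSG00000116016, hg19 chr2:46520806-46613836, plus strand) was at 4.15 and 3.97 FPKM in the siCTL libraries, 5.85 and 5.93 in siCARM1, 10.3 and 9.9 in siCHD4, 5.39 and 5.18 in siHDAC2, 11.5 and 11.5 in siGATAD2A, and 7.94 and 7.05 in siKDM1A. Every knockdown library stood above both control libraries, and no 2 groups of knockdown libraries overlapped. The rise was 2.84-fold in siGATAD2A (log2 fold change 1.51, 95% interval 1.38 to 1.63, edgeR adjusted p = 1.82e-18) and 2.48-fold in siCHD4 (1.31, 1.19 to 1.44). It was 1.85-fold in siKDM1A, 1.45-fold in siCARM1 and 1.3-fold in siHDAC2.

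HIF1A (ENSG00000100644, hg19 chr14:62162231-62214977, plus strand), the more abundant of the pair in siCTL, was called higher together with EPAS1 in siCHD4 only. Its level was 17.3 and 16 FPKM in siCTL, 17 and 17.6 in siCARM1, 21.6 and 21.6 in siCHD4, 16.2 and 14.2 in siHDAC2, 11.6 and 11 in siGATAD2A, and 14 and 15.3 in siKDM1A. The siCHD4 libraries were the highest and the siGATAD2A libraries the lowest of the 12. The rise in siCHD4 was 1.3-fold (log2 fold change 0.37, edgeR adjusted p = 1.63e-06) and the decrease in siGATAD2A 1.47-fold (-0.56, adjusted p = 5.40e-09). In the other 3 knockdowns the log2 fold change was 0.06, -0.14 and -0.19, and no call was made.

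HIF1A therefore made up 80.4% of the summed FPKM of the pair in siCTL and 49.5% in siGATAD2A, with 50.2% and 48.9% in the separate siGATAD2A libraries. In the other knockdowns the share lay between 66.1% (siKDM1A) and 74.6% (siCARM1). FPKM compares levels per length of exon, and these shares are of RNA, not of protein.

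The partner and the regulators of the alpha subunits passed in no knockdown. ARNT ranged over the 12 libraries from 7.07 to 9.46 FPKM and VHL from 21.4 to 30.4, and both were lowest in siCHD4, with log2 fold changes of -0.23 and -0.25. The VHL decrease lay close to the minimum fold: without replicate 2 of siCHD4 it was -0.28 and was called. EGLN3 was at 2.04 and 1.88 FPKM in siCTL, 2.26 and 1.96 in siCARM1, 1.84 and 1.85 in siCHD4, 2.21 and 1.92 in siHDAC2, 1.61 and 1.89 in siGATAD2A, and 1.82 and 1.73 in siKDM1A, with 95% intervals of the log2 fold change that held 0 in all 5 knockdowns. EGLN1 was at 2.84 and 2.45 FPKM in siCTL, 2.83 and 2.14 in siCARM1, 2.88 and 2.63 in siCHD4, 2 and 2.7 in siHDAC2, 2.32 and 2.38 in siGATAD2A, and 2.51 and 2.36 in siKDM1A. For this gene, 69.3% of the main transcript is shared on the same strand with another annotated gene. Fragments that overlap both genes are not counted.

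Of the 8 HIF targets of secreted, mitochondrial and stress proteins that were tested, only VEGFA was called in the same direction in all 5 knockdowns. The log2 fold change of BNIP3L was negative in all 5, from -0.34 to -0.11, and was called in siGATAD2A alone. VEGFA (ENSG00000112715, hg19 chr6:43737921-43754224, plus strand) encodes the vascular endothelial growth factor that drives blood vessel growth. It stood at 2.63 and 2.38 FPKM in siCTL, 3.77 and 3.64 in siCARM1, 6.53 and 6.56 in siCHD4, 3.06 and 3.32 in siHDAC2, 4.52 and 3.95 in siGATAD2A, and 4.01 and 4.02 in siKDM1A. All 10 knockdown libraries were above both siCTL libraries. The rise was 2.62-fold in siCHD4 (log2 fold change 1.39, 95% interval 1.26 to 1.52, edgeR adjusted p = 6.32e-18) and between 1.28-fold (siHDAC2) and 1.7-fold (siGATAD2A) elsewhere.

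The largest rise of a member was that of ANKRD37 (ENSG00000186352, hg19 chr4:186317175-186321782, plus strand), an ankyrin repeat protein gene induced by HIF1A. Its level was 0.467 and 0.452 FPKM in siCTL, 0.585 and 0.752 in siCARM1, 1.46 and 1.73 in siCHD4, 0.527 and 0.381 in siHDAC2, 0.659 and 0.49 in siGATAD2A, and 0.428 and 0.375 in siKDM1A. Only the siCHD4 libraries were set off from the rest, with a rise of 3.47-fold (log2 fold change 1.80, 95% interval 1.23 to 2.36, edgeR adjusted p = 6.99e-07). The gene rested on 20 to 96 fragments a library, and its exons overlap those of UFSP2 on the other strand over 40.3% of their length. ADM, the vasodilator peptide adrenomedullin, was at 15.4 and 14.8 FPKM in siCTL, 27 and 25.1 in siCHD4 and 12.2 and 12.1 in siKDM1A. It rose 1.73-fold in siCHD4 and fell 1.24-fold in siKDM1A (edgeR adjusted p = 2.56e-12 and 4.51e-04). In the other 3 knockdowns it lay between 13.5 and 17.5 FPKM and was not called.

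NDRG1 (ENSG00000104419, hg19 chr8:134249418-134314265, minus strand), a stress-responsive gene that HIF induces, separated siGATAD2A from the others. Its level was 10.1 and 10 FPKM in siCTL, 11.5 and 11.1 in siCARM1, 10.8 and 10.7 in siCHD4, 8.01 and 8.34 in siHDAC2, 5.15 and 5.09 in siGATAD2A, and 11.6 and 10.9 in siKDM1A. The decrease was 1.97-fold in siGATAD2A (log2 fold change -0.98, edgeR adjusted p = 1.93e-16) and 1.23-fold in siHDAC2. The mitophagy receptors BNIP3 and BNIP3L were called in different knockdowns. BNIP3 was at 9.27 and 7.58 FPKM in siCTL, 7.31 and 7.4 in siCARM1, 8.35 and 8.94 in siCHD4, 6.42 and 6.55 in siHDAC2, 7.98 and 8.67 in siGATAD2A, and 5.7 and 6.28 in siKDM1A. BNIP3L was at 16.5 and 16.8 FPKM in siCTL, 14 and 15.1 in siCARM1, 15.2 and 14.7 in siCHD4, 14.9 and 14.6 in siHDAC2, 13.3 and 13.1 in siGATAD2A, and 15.2 and 15.8 in siKDM1A. BNIP3 fell 1.4-fold in siKDM1A and 1.29-fold in siHDAC2, and BNIP3L fell 1.26-fold in siGATAD2A. BNIP3 has 44 named pseudogenes, and fragments that map to several places are not counted. The siCTL libraries differed for BNIP3: without siCTL replicate 1 the decrease in siHDAC2 was no longer called (log2 fold change -0.22), and without siCTL replicate 2 a decrease in siCARM1 was (-0.33).

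ERO1A (ENSG00000197930, hg19 chr14:53106633-53162618, minus strand), the endoplasmic reticulum oxidase that helps form disulfide bonds, was higher in 4 knockdowns and lower in 1. It was at 9.47 and 9.47 FPKM in siCTL, 13.6 and 14.5 in siCARM1, 6.97 and 7.3 in siCHD4, 11.6 and 11.2 in siHDAC2, 11.4 and 11.4 in siGATAD2A, and 12.1 and 12.3 in siKDM1A. The siCHD4 libraries were the lowest of the 12 and the siCARM1 libraries the highest. The rise was 1.48-fold in siCARM1 (edgeR adjusted p = 1.76e-10) and the decrease 1.33-fold in siCHD4 (adjusted p = 1.21e-07). The rises in siHDAC2 and siGATAD2A, both 1.2-fold, sat at the minimum fold, and the former was not called without siHDAC2 replicate 1 (log2 fold change 0.24). Neither was called with counts taken without regard to strand (0.25 and 0.26). BHLHE40, a transcriptional repressor of the circadian and hypoxic responses, rose 1.41-fold in siKDM1A, with 15.5 and 14.4 FPKM against 10.6 and 10.7 in siCTL. It was not called elsewhere, although a rise in siGATAD2A was (log2 fold change 0.32) without siGATAD2A replicate 1.

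Of the collagen hydroxylases, 1 was called in the same knockdowns and directions as HIF1A. P4HA1, a catalytic subunit of prolyl 4-hydroxylase, was at 10.3 and 11.4 FPKM in siCTL, 9.77 and 10.4 in siCARM1, 14.1 and 14.5 in siCHD4, 12.5 and 10.8 in siHDAC2, 7.56 and 7.5 in siGATAD2A, and 11 and 11.9 in siKDM1A. The siCHD4 libraries were the highest and the siGATAD2A libraries the lowest. It rose 1.32-fold in siCHD4 and fell 1.44-fold in siGATAD2A (edgeR adjusted p = 2.44e-05 and 1.80e-06). P4HA2, the alternative catalytic subunit, was at 5.41 and 5.09 FPKM in siCTL, 4.96 and 4.45 in siCARM1, 4.56 and 4.52 in siCHD4, 4.25 and 4.31 in siHDAC2, 3.1 and 3.3 in siGATAD2A, and 5.04 and 4.98 in siKDM1A. It fell 1.64-fold in siGATAD2A. Its decrease in siHDAC2 was 1.23-fold and was not called without siCTL replicate 1 (log2 fold change -0.25). PLOD2, a lysyl hydroxylase, was not called: its log2 fold change was lowest in siGATAD2A (-0.21) and highest in siCARM1 (0.17).

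Glucose enters the cell through the transporters SLC2A1 (GLUT1) and SLC2A3 (GLUT3) and is trapped by the hexokinases HK1 and HK2. In each pair, 1 member was called. SLC2A3 (ENSG00000059804, hg19 chr12:8071826-8171603, minus strand) was at 45.2 and 46.3 FPKM in siCTL, 58.9 and 62.6 in siCARM1, 79.5 and 79.7 in siCHD4, 55.6 and 53 in siHDAC2, 72.1 and 74 in siGATAD2A, and 80.4 and 79.4 in siKDM1A. It rose 1.75-fold in siKDM1A (log2 fold change 0.81, 95% interval 0.73 to 0.88, edgeR adjusted p = 8.08e-17), 1.74-fold in siCHD4, 1.6-fold in siGATAD2A and 1.33-fold in siCARM1. In siHDAC2 both libraries were above siCTL, and the 1.19-fold difference fell just short of the minimum. It was called without siCTL replicate 2 (log2 fold change 0.27) and without siHDAC2 replicate 2 (0.28).

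SLC2A1 was at 12.9 and 14.7 FPKM in siCTL, 16.3 and 16.4 in siCARM1, 15.3 and 15.8 in siCHD4, 13.6 and 15 in siHDAC2, 15.7 and 14.8 in siGATAD2A, and 14.2 and 14.6 in siKDM1A. It was called in no knockdown, with log2 fold changes from 0.06 to 0.25. The siCTL libraries differed, and without siCTL replicate 2 a rise was called in siCARM1 (0.35) and in siCHD4 (0.28). As a share of the FPKM of both transporters, SLC2A1 made up 23.1% in siCTL and between 15.3% (siKDM1A) and 21.2% (siCARM1) in the knockdowns.

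HK2 (ENSG00000159399, hg19 chr2:75061254-75120486, plus strand), the inducible hexokinase, was at 6.91 and 7.43 FPKM in siCTL, 8.64 and 9.16 in siCARM1, 17 and 16.6 in siCHD4, 6.99 and 7.46 in siHDAC2, 8.14 and 7.87 in siGATAD2A, and 8.93 and 9.55 in siKDM1A. It rose 2.34-fold in siCHD4 (log2 fold change 1.23, 95% interval 1.11 to 1.34, edgeR adjusted p = 1.34e-17), 1.29-fold in siKDM1A and 1.24-fold in siCARM1. The siCARM1 rise was not called without siCTL replicate 1 (0.26). HK1, the housekeeping isozyme, was at 33.5 and 33.9 FPKM in siCTL, 36.6 and 36.4 in siCARM1, 39.2 and 38.8 in siCHD4, 32.7 and 33.5 in siHDAC2, 31.5 and 31.8 in siGATAD2A, and 35.8 and 34.8 in siKDM1A. It was not called, and its share of the pair was 82.5% in siCTL and 69.9% in siCHD4.

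The next committed step is that of phosphofructokinase, an enzyme built from the subunits PFKL, PFKM and PFKP. PFKL (ENSG00000141959, hg19 chr21:45719934-45747259, plus strand) was at 17.9 and 18.6 FPKM in siCTL, 24.2 and 23.7 in siCARM1, 18.3 and 17.3 in siCHD4, 24.8 and 26.5 in siHDAC2, 22 and 22.2 in siGATAD2A, and 24.7 and 22.4 in siKDM1A. It rose 1.41-fold in siHDAC2 (log2 fold change 0.49, edgeR adjusted p = 1.48e-09) and from 1.21-fold to 1.31-fold in siGATAD2A, siKDM1A and siCARM1, while its siCHD4 libraries overlapped the control. The siGATAD2A rise was not called without siCTL replicate 1 (0.25).

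In siCHD4 the other subunits were called instead. PFKP was at 28.1 and 28 FPKM in siCTL, 28.8 and 27.9 in siCARM1, 39.6 and 39.6 in siCHD4, 27.4 and 28.4 in siHDAC2, 26.1 and 27.1 in siGATAD2A, and 31.6 and 29 in siKDM1A. It rose 1.41-fold in siCHD4 (edgeR adjusted p = 1.51e-11). PFKM, the muscle-type subunit, was at 17.7 and 18.8 FPKM in siCTL, 16.3 and 16.5 in siCARM1, 11.7 and 11.8 in siCHD4, 20.6 and 18.9 in siHDAC2, 17.8 and 18.8 in siGATAD2A, and 17.7 and 18.2 in siKDM1A. It fell 1.55-fold in siCHD4 (edgeR adjusted p = 3.19e-12). PFKP thereby went from 43.5% to 57.2% of the summed FPKM of the 3 subunits, and PFKM from 28.3% to 17%.

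The bifunctional enzymes PFKFB3 and PFKFB4 set the level of the sugar phosphate that stimulates phosphofructokinase. PFKFB3 was at 5.34 and 5.38 FPKM in siCTL, 6.99 and 6.05 in siCARM1, 9.49 and 9.35 in siCHD4, 5.54 and 5.49 in siHDAC2, 5.88 and 5.8 in siGATAD2A, and 7.14 and 6.38 in siKDM1A. PFKFB4 was at 1.66 and 1.9 FPKM in siCTL, 1.57 and 1.58 in siCARM1, 0.775 and 0.66 in siCHD4, 1.57 and 1.56 in siHDAC2, 1.36 and 1.36 in siGATAD2A, and 1.6 and 1.64 in siKDM1A. They moved in opposite directions in siCHD4, where PFKFB3 rose 1.76-fold and PFKFB4 fell 2.49-fold (edgeR adjusted p = 1.45e-11 and 5.70e-10). The share of PFKFB3 in the pair was 75.1% in siCTL and 92.9% in siCHD4. Smaller calls depended on single libraries. The 1.22-fold rise of PFKFB3 in siCARM1 ended without siCARM1 replicate 1 (log2 fold change 0.17) and its 1.26-fold rise in siKDM1A without siKDM1A replicate 1 (0.25), as did the 1.32-fold decrease of PFKFB4 in siGATAD2A without siCTL replicate 2 (-0.29).

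**Figure D2:**
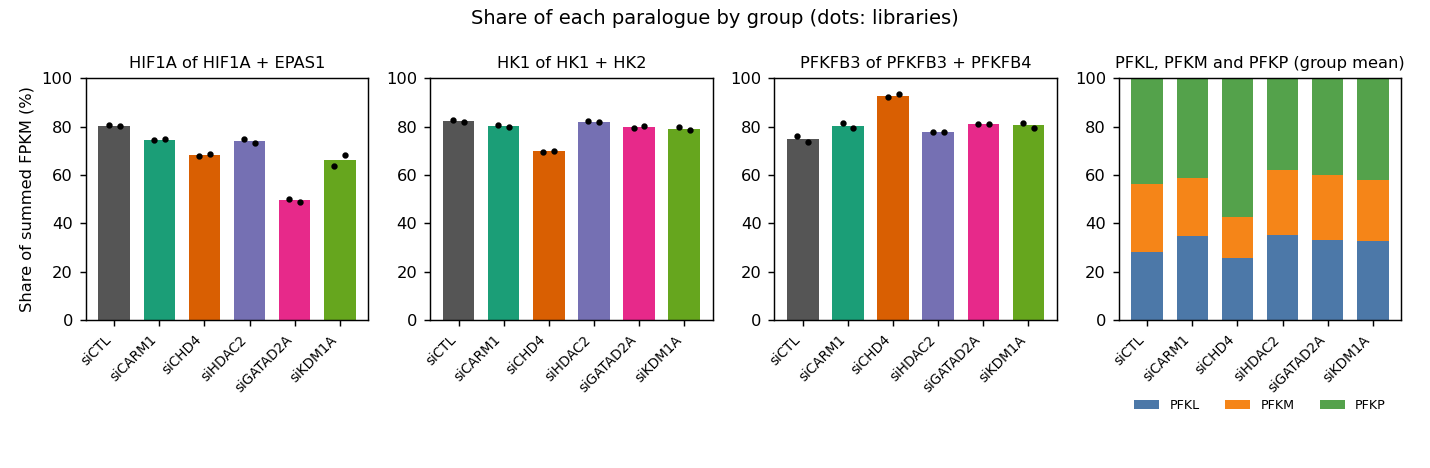
Share (percent, vertical axes from 0 to 100) of a gene in the summed FPKM of its paralogues, by group; bars are means of 2 libraries and dots are the libraries in the 3 panels at left, and the panel at right stacks the group means of PFKL, PFKM and PFKP. HIF1A falls to 49.5% in siGATAD2A, and siCHD4 has the lowest share of HK1 and the highest shares of PFKFB3 and PFKP.

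ALDOC (ENSG00000109107, hg19 chr17:26900133-26903966, minus strand), the brain-type aldolase, was the only member called lower in every knockdown. The log2 fold change was negative in all 5 for 7 members (17.1%): BNIP3L, P4HA2, ALDOC, TPI1, PFKFB4, LDHA and LDHB. It was positive in all 5 for 6 members (14.6%): EPAS1, VEGFA, SLC2A1, SLC2A3, HK2 and PFKFB3. The shares of all tested genes with the same sign in all 5 were not computed, and the 5 comparisons share the siCTL libraries. Aldolase splits the 6-carbon sugar into a pair of 3-carbon sugars. ALDOC was at 6.97 and 6.94 FPKM in siCTL, 5.56 and 5 in siCARM1, 2.54 and 2.12 in siCHD4, 4.4 and 5.49 in siHDAC2, 3.29 and 2.94 in siGATAD2A, and 4.96 and 4.92 in siKDM1A. All knockdown libraries were below both siCTL libraries. The decrease was 2.99-fold in siCHD4 (log2 fold change -1.58, 95% interval -1.83 to -1.33, edgeR adjusted p = 1.63e-12) and 2.23-fold in siGATAD2A (-1.15, -1.39 to -0.92). It lay between 1.31-fold and 1.41-fold in the other 3.

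ALDOA, the main aldolase of most tissues, was listed at 0.866 and 1.04 FPKM in siCTL, 0.783 and 0.802 in siCARM1, 1.15 and 1.2 in siCHD4, 0.892 and 1.11 in siHDAC2, 0.775 and 0.743 in siGATAD2A, and 1.07 and 0.957 in siKDM1A. However, 89.8% of its main transcript is shared on the same strand with another annotated gene and fragments that overlap both are not counted. Its level and its share beside ALDOC are therefore not those of the transcript. GPI, which makes fructose 6-phosphate, fell 1.26-fold in siCHD4 (20.8 and 20.7 FPKM against 26.3 and 26.1 in siCTL). TPI1, which interconverts the 3-carbon sugars, was below siCTL in all 10 knockdown libraries, at 303 to 344 FPKM against 360 and 369. Its log2 fold changes ran from -0.26 in siCARM1 to -0.08 in siCHD4, and no decrease reached the minimum fold. The decrease in siCARM1 was called without siCTL replicate 1 (-0.28) and without siCARM1 replicate 1 (-0.27).

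The enzymes of lower glycolysis recover ATP from the 3-carbon sugars. Of the 6 listed, GAPDH, PKM, PGK1 and ENO1 were not called in any knockdown. GAPDH lay between 730 and 888 FPKM, PKM between 129 and 172 and PGK1 between 63.3 and 71.7. ENO1 was at 392 and 411 FPKM in siCTL, 400 and 404 in siCARM1, 435 and 422 in siCHD4, 408 and 409 in siHDAC2, 392 and 386 in siGATAD2A, and 415 and 405 in siKDM1A. Each of these genes had an adjusted p of at most 0.05 in at least 1 knockdown, below the minimum fold. The widest log2 fold changes were -0.23 for GAPDH in siGATAD2A (95% interval -0.29 to -0.17), -0.20 for PKM in siCARM1 (-0.26 to -0.13), 0.11 for PGK1 in siCHD4 (0.04 to 0.19) and 0.09 for ENO1 in siCHD4 (0.03 to 0.16).

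PGAM1 and ENO2 were the members of lower glycolysis that were called. PGAM1, a phosphoglycerate mutase, fell from 133 and 140 FPKM in siCTL to 113 and 113 in siCHD4 and 114 and 112 in siGATAD2A. Both decreases were close to 1.2-fold, and without siCTL replicate 2 neither was called (log2 fold change -0.23 in both). The siGATAD2A decrease was not called without siGATAD2A replicate 2 either (-0.25), nor the siCHD4 decrease with DESeq2 or with its size factors in edgeR (-0.26 in both). ENO2, the neuronal enolase, was at 19.1 and 19.4 FPKM in siCTL, 15.3 and 14.5 in siCARM1, 23.4 and 22.6 in siCHD4, 19.1 and 18.8 in siHDAC2, 23.5 and 22.9 in siGATAD2A, and 16.5 and 16.9 in siKDM1A. It fell 1.29-fold in siCARM1 (edgeR adjusted p = 9.80e-07). It rose 1.21-fold in siGATAD2A, which was not called without siCTL replicate 1 (0.26) or siGATAD2A replicate 1 (0.25). Its siCHD4 libraries gave a 1.19-fold difference that was called without siCTL replicate 2 or siCHD4 replicate 2 (0.28 in both).

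Summed over 17 enzymes from hexokinase to lactate dehydrogenase, with ALDOA and LDHB undercounted, glycolytic RNA was 2250 and 2310 FPKM in siCTL. It was 2130 in both siCARM1 libraries, 2230 and 2210 in siCHD4, 2250 in both siHDAC2 libraries, 2040 and 2030 in siGATAD2A, and 2270 and 2210 in siKDM1A. The siGATAD2A mean was 10.5% below siCTL and the siCARM1 mean 6.42% below it, and in these groups no library overlapped the control. With 2 libraries against 2, the smallest two-sided p an exact permutation test can give is 0.333, and the sums were not tested. GAPDH, ENO1 and TPI1 had the highest levels among the enzymes and so weighed most in the sum. The group means in siCTL, siCARM1 and siGATAD2A were 861, 799 and 732 FPKM for GAPDH. They were 364, 305 and 328 for TPI1 and 402, 402 and 389 for ENO1. None of these genes was called in any knockdown. GAPDH, PGAM1, LDHA and PKM have processed pseudogenes, to which fragments can map equally well and then go uncounted.

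**Figure D3:**
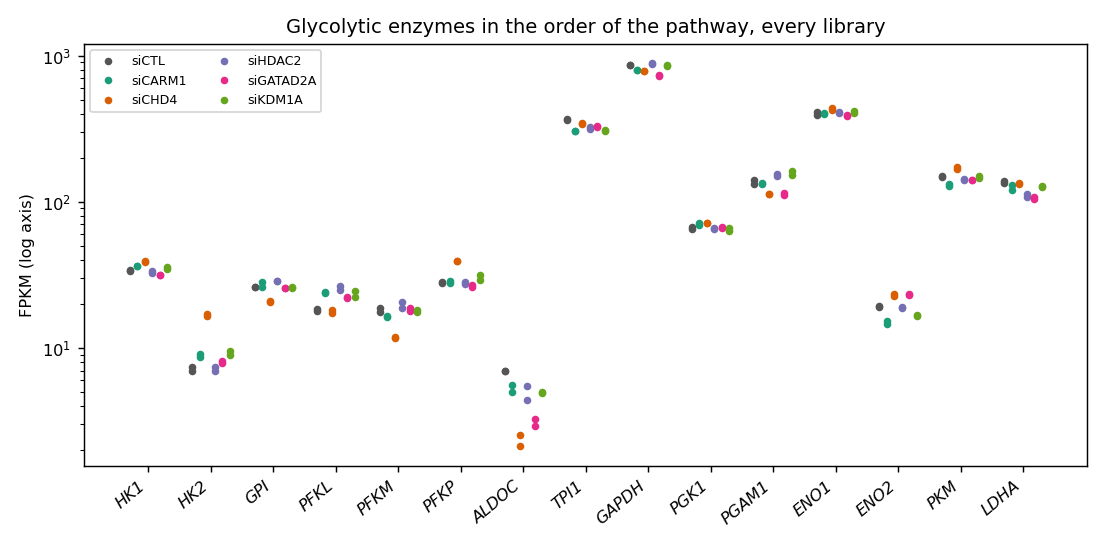
FPKM (log axis) of 15 glycolytic enzymes in the order of the pathway; each point is 1 library and colors mark the groups. TPI1, GAPDH and ENO1 stay within a narrow band near the top, while the siCHD4 points of HK2 lie above and those of ALDOC and PFKM below the other groups.

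At the end of the pathway, lactate dehydrogenase turns pyruvate into lactate and SLC16A3 (MCT4) exports it. SLC16A3 (ENSG00000141526, hg19 chr17:80175810-80219005, plus strand) was at 1.69 and 1.79 FPKM in siCTL, 0.887 and 0.967 in siCARM1, 1.73 and 1.82 in siCHD4, 1.13 and 1.22 in siHDAC2, 0.825 and 0.833 in siGATAD2A, and 1.46 and 1.51 in siKDM1A. It fell 2.1-fold in siGATAD2A (log2 fold change -1.07, 95% interval -1.29 to -0.86, edgeR adjusted p = 1.10e-09), 1.88-fold in siCARM1 (-0.91, -1.13 to -0.70) and 1.48-fold in siHDAC2. The siCHD4 libraries overlapped the control (0.03, -0.17 to 0.22).

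LDHA was at 135 and 138 FPKM in siCTL, 120 and 130 in siCARM1, 134 and 133 in siCHD4, 113 and 108 in siHDAC2, 105 and 108 in siGATAD2A, and 128 and 127 in siKDM1A. It fell 1.23-fold in siHDAC2 and 1.28-fold in siGATAD2A (edgeR adjusted p = 2.84e-07 and 2.66e-09) and was not called in the other knockdowns. LDHB was at 3.25 and 3.4 FPKM in siCTL, 3.18 and 3.13 in siCARM1, 2.8 and 2.92 in siCHD4, 2.42 and 3.14 in siHDAC2, 2.67 and 2.62 in siGATAD2A, and 2.72 and 2.95 in siKDM1A. It was called lower in siGATAD2A (1.26-fold), a call lost on leaving out any 1 of the libraries of siCTL or siGATAD2A, with log2 fold changes from -0.36 to -0.29. Without siHDAC2 replicate 2 a decrease in siHDAC2 was called (-0.46). Of its main transcript, 76.5% is shared with another gene on the strand. PDK1, the kinase that inhibits pyruvate dehydrogenase in the mitochondrion, fell 1.28-fold in siCHD4, from 2.12 and 2 to 1.57 and 1.66 FPKM. A decrease in siHDAC2 was called without siCTL replicate 2 (-0.28).

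CA9, a cell-surface carbonic anhydrase and HIF1A target, was listed at 0 in both siCTL libraries and at 0.397 and 0.382 FPKM in siCHD4. Elsewhere it lay between 0 and 0.086, with no more than 15 fragments in any library, and it was not tested. MXRA8, a cell-surface receptor that belongs to neither pathway but was listed, lay between 0.3 and 0.91 FPKM and was not called. Its direction depended on the strand of the counts: counted without regard to strand, its log2 fold change went from -0.13 to 0.40 in siCARM1 and from 0.54 to -1.02 in siCHD4. The 4 members EGLN1, EGLN3, ALDOA and MXRA8 had no adjusted p of 0.05 or less against siCTL. In all, 14 members (34.1%, background 27.1%) were called in no knockdown.

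Each pair of knockdowns was then compared directly, which leaves the siCTL libraries out of the difference. Over 10 pairs, 158 of 410 member differences (38.5%) were called, and the pooled share of all tested genes was not computed. Over all tested genes, the share called ran from 14.3% (siHDAC2 with siKDM1A) to 48.9% (siCHD4 with siHDAC2). The pairs with siCHD4 held most of them: 27 members against siGATAD2A (65.9%, background 44.7%), 26 against siHDAC2 (63.4%, 48.9%), 23 against siKDM1A (56.1%, 47.7%) and 23 against siCARM1 (56.1%, 47.5%). Between siHDAC2 and siGATAD2A 15 were called (36.6%, background 29.4%), between siGATAD2A and siKDM1A 12 (29.3%, 32.1%), and between siCARM1 and siGATAD2A 11 (26.8%, 33.8%). Between siHDAC2 and siKDM1A 8 were called (19.5%, background 14.3%), between siCARM1 and siHDAC2 7 (17.1%, 19.3%), and between siCARM1 and siKDM1A 6 (14.6%, 21%). For each pair the first percentage is of the 41 members and the other is the background. The differences between these shares were not tested.

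The pair with the most calls, by 1 member, was siCHD4 with siGATAD2A, in which 17 members were higher in siCHD4 and 10 lower. HIF1A was higher in siCHD4 by 0.93 on the log2 scale (95% interval 0.81 to 1.05, edgeR adjusted p = 1.61e-14), and so were P4HA1 by 0.93, NDRG1 by 1.07, HK2 by 1.07, SLC16A3 by 1.10 and ANKRD37 by 1.47. PFKFB4, ERO1A and PFKM were lower in siCHD4, with log2 differences of -0.92, -0.67 and -0.63. EPAS1, whose largest rises against siCTL were in these knockdowns, differed between them by -0.19 (-0.30 to -0.08) and was not called. SLC2A3 differed by 0.12 (0.05 to 0.20) and was not called either.

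**Figure D4:**
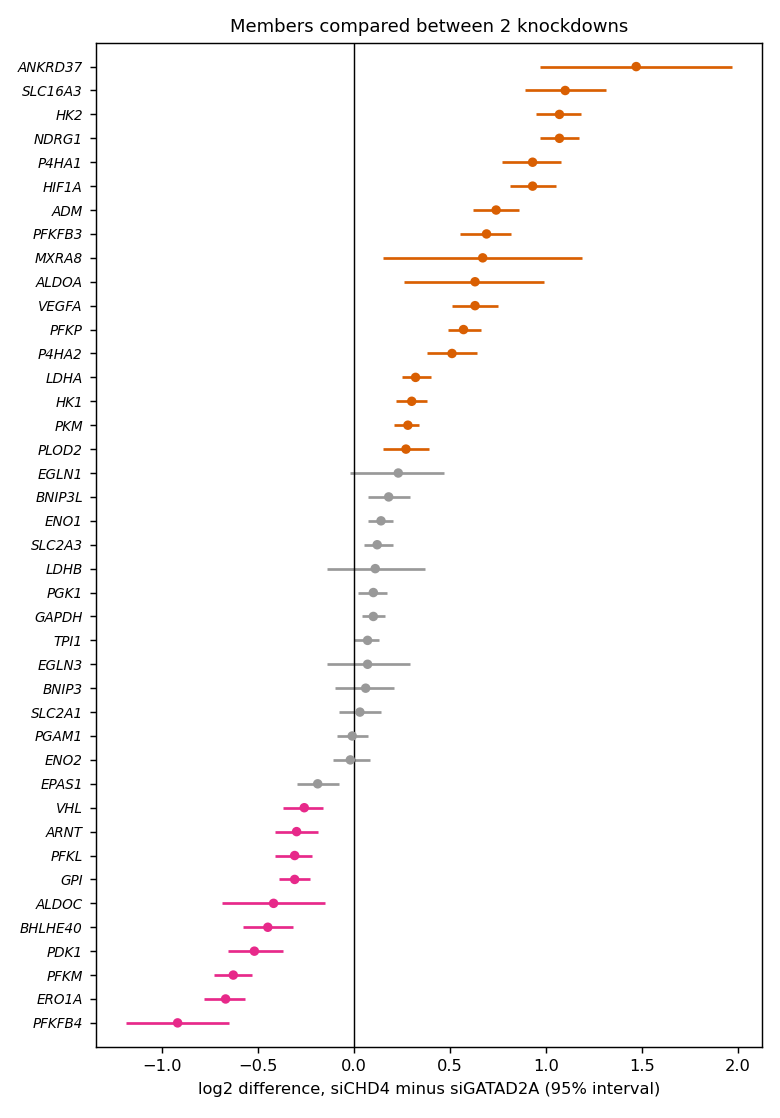
Log2 difference, siCHD4 minus siGATAD2A, of the 41 members tested; points are edgeR estimates, lines are 95% intervals, orange marks calls higher in siCHD4, magenta calls lower in siCHD4 and gray no call. ANKRD37, SLC16A3, HK2 and NDRG1 lie farthest to the right and PFKFB4 and ERO1A farthest to the left.

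EPAS1 and SLC16A3 were called in 8 of the 10 pairs, more than the other members. The share of all tested genes called in that many pairs was not computed, so the count does not set these members apart from other genes. For EPAS1, the pairs without a call were siCHD4 with siGATAD2A and siCARM1 with siHDAC2 (log2 difference 0.16, 95% interval 0.03 to 0.28). For SLC16A3, siCARM1 was lower than siKDM1A (-0.69, edgeR adjusted p = 6.99e-06) and lower than siHDAC2 (-0.35), and did not pass against siGATAD2A (0.16, -0.07 to 0.39). ALDOC was lower in siCHD4 than in each other knockdown, by 0.42 to 1.19 on the log2 scale, and did not pass among siCARM1, siHDAC2 and siKDM1A. NDRG1 was lower in siGATAD2A than in siHDAC2 (adjusted p = 1.71e-12), where it had also fallen against siCTL.

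A further 62 genes of the same pathways were listed, of which 50 were tested. Lower calls were made for 11 of them in siCARM1 (22%, against 14.7% of all tested genes), 14 in siCHD4 (28%, against 25.5%), 3 in siHDAC2 (6%, against 9.28%), 11 in siGATAD2A (22%, against 18.4%) and 4 in siKDM1A (8%, against 11.8%). Higher calls were made for 7 (14%, against 14.7%), 12 (24%, against 23.4%), 7 (14%, against 10.4%), 5 (10%, against 15.4%) and 8 (16%, against 14%), in the same order. Among 14 further HIF targets tested, STC2, the secreted glycoprotein stanniocalcin 2, rose in all 5 knockdowns as VEGFA did, by 0.47 to 0.84 on the log2 scale. CA12, a carbonic anhydrase related to CA9, rose in 4 knockdowns, most in siCHD4 (log2 fold change 0.82), and fell in siGATAD2A (-0.39). Others of the 14 were called lower. FAM162A fell in siCHD4 and siGATAD2A (-0.70 and -0.50). DDIT4 fell in the same knockdowns (-0.86 and -0.84) and rose in siHDAC2 (0.49). Of the 70 changes of these 14 targets, 9 were calls lower and 21 higher. For 14 genes of pyruvate dehydrogenase, pyruvate entry and lactate transport, 11 of 70 changes were calls lower and 8 higher. Over all tested genes, the share called ran by knockdown from 9.28% to 25.5% lower and from 10.4% to 23.4% higher. The counts of these lists were not tested against it. The kinase gene PDK2 fell in all but siGATAD2A, most in siCHD4 (log2 fold change -0.63). Its relative PDK3 rose in siCHD4, siHDAC2 and siKDM1A (0.33, 0.43 and 0.37), and PDP1, the opposing phosphatase, rose in siCHD4, siGATAD2A and siKDM1A (0.48, 0.77 and 0.49). STC2, CA12, FAM162A, DDIT4, PDK2, PDK3 and PDP1 were named after their values were seen.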

How the data were processed

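RNA was sequenced from 12 libraries of HEK293T cells as the labels name them (the study's text says HEK293), 2 for each of 6 siRNAs, with a directional kit on paired ends, at either of 2 companies that the labels do not tie to libraries. The deposited files hold whole-number counts per gene. The authors made these counts with STAR 2.7.10 on hg19, after CASAVA 1.4, according to the submitters' processing notes, and the study's methods name TopHat and HOMER instead. The annotation release is not given in the sources used here. The layout of 3 count columns (unstranded, forward, reverse) was recognised from the values, and reverse-strand counts were used. Such counts leave out fragments that map to several places or overlap several genes, which lowers genes with copies or overlapping neighbours.

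Identifiers were matched to symbols in GENCODE release 44 on hg19: 58704 matched and 1956 did not, the latter holding 1.75 to 2.61% of the counts. Protein-coding genes with a group mean above 0.5 FPKM were tested (12853). FPKM was computed from the counts and the union of exon lengths. Library totals were TMM-scaled for the levels and sums and unscaled for the filter. edgeR 4.0.16 (R 4.3.3) fitted 6 group means with TMM scaling and the quasi-likelihood test, adjusted by Benjamini-Hochberg over all tested genes, at an adjusted p of at most 0.05 and a fold of at least 1.2, for 5 contrasts with siCTL and 10 between knockdowns. The biological coefficient of variation was 3.47%. The fit was tested on simulated data. Intervals are at 95%. Values in every library were given for members called in 1 direction in at least 4 knockdowns, the 3 largest calls in each knockdown, HIF1A, EPAS1 and the paralogue pairs, and further members were named by role after their values were seen. Members, lists and promoters shown were chosen with earlier results of these data known. Same-numbered libraries did not deviate together (correlations -0.183 to 0.171 over 15 pairs of groups). Replicates differed by more than counting noise in every group. Motifs were searched in RefSeq promoter windows on GRCh38.p14. Alternatives were other scaling, filters, strand, fold minimum, DESeq2 1.42.0, a replicate block and each library left out.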

Additional observations from a re-analysis of the deposited data

How the results depend on the processing

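Without a minimum fold, 30 members were called in siCHD4, 24 in siGATAD2A, 23 in siCARM1, 20 in siKDM1A and 17 in siHDAC2, and 245 differences between knockdowns. With a fold of at least 1.5, the counts were 10, 7, 1, 3 and 0 in the same order, with 62 differences. The 17 siHDAC2 members that edgeR called without a minimum fold all lay under 1.5-fold. Shares of all tested genes at these settings were not computed, so the order of the knockdowns is not a result about the members. Over all tested genes, the standard deviation of the log2 fold change was 0.738 in siCHD4 and 0.333 in siHDAC2. Leaving out each library in turn gave 10 to 12 members in siCARM1, 17 to 19 in siCHD4, 8 to 12 in siHDAC2, 14 to 17 in siGATAD2A, 10 to 11 in siKDM1A, and 153 to 161 differences. Of 2460 single changes so recomputed, 17 calls were lost, 13 were gained and 0 reversed. Under 8 other settings, 1614 of 1633 kept their direction and call, 11 were lost, 6 gained and 2 reversed: MXRA8 counted without regard to strand, at 0.40 in siCARM1 and -1.02 in siCHD4. With a replicate block in the fit, none of the 205 changes altered its call, and the replicate numbers did not pair the libraries. Counted as CPM in place of FPKM, the summed level of the glycolytic enzymes was 1.08% above siCTL in siCHD4 and differed by -8.49% in siGATAD2A. The share of ALDOA beside ALDOC, 18.7% as a mean over the libraries, was 27.2% without regard to strand. Depth limits CA9, ANKRD37 and MXRA8 most, and the direction of MXRA8 also depends on the strand counted. Overlapping genes limit ALDOA, LDHB and EGLN1, and calls near the minimum fold hang on single libraries.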
